A study of Bos indicus with 55 samples.

Results

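The miR-30 family in conceptus vesicles comprised 6 of the 1024 bovine miRNA entries in the deposited count table, namely bta-miR-30a-5p, bta-miR-30b-5p, bta-miR-30c, bta-miR-30d, bta-miR-30e-5p and bta-miR-30f (bta- stands for cattle and is left out below). They were taken by name and not by a cutoff on a measured value. Earlier results of these data were known when they were chosen. All 6 had counts in every one of the 28 vesicle libraries. The libraries hold small RNA from extracellular vesicles (EVs, membrane particles that cells shed), which each conceptus, the embryo with its membranes, released during 6 h of culture on day 16 of pregnancy. In vivo conceptuses came from artificial insemination (3 female and 3 male libraries), IVF conceptuses from in vitro fertilisation (7 female and 3 male), and nuclear transfer conceptuses from an egg given the nucleus of another cell (5 female and 7 male). The design text gives the conceptuses as Bos taurus taurus, although the organism label reads Bos indicus throughout. The sources used here name neither the donor cells of nuclear transfer nor how many clones they gave, and do not say whether each replicate had its own recipient cow, so p-values measure the spread between these libraries.

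miR-30 miRNAs are a conserved family whose members share a seed, the short stretch near the 5′ end that pairs with target messages, so that members are expected to reach overlapping targets. They are made from several precursors: in mammals miR-30b and miR-30d form a cluster, and miR-30e lies with a miR-30c copy in an intron of NFYC, a transcription factor gene. The family is best known for holding back SNAI1 and other drivers of epithelial-to-mesenchymal transition. In the uterus, miR-30d has been described as a miRNA of human endometrial fluid that embryos can take up. The study's title names the lining of the uterus as a sensor of the conceptus, with vesicle miRNAs as 1 route of the signal.

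Depth limits what can be said of the scarcer members. Library totals ran from 39263 to 603579 counts with a median of 120728, and 3 libraries lay under 50000. The deepest were nuclear transfer female 3 at 603579 and in vivo male 3 at 400928 counts. miR-2887, miR-2904 and miR-2892, cattle entries that overlap ribosomal or other small RNA and not members, took 4.11% to 76.5% of the counts of a library. Marker miRNAs of other cell types were present, in some libraries at levels within the range of the miR-30 sum. Per 100000 counts, the red cell list (miR-451, miR-144, miR-486; 3 of 3 entries with counts) summed to 3.31 to 532 and the leukocyte list (5 of 5 with counts) to 0 to 679. The endothelial list (2 of 2) summed to 63.9 to 1767, the muscle list (3 of 3) to 0.994 to 1775, the liver marker miR-122 to 16.5 to 2409, and the neuron list (2 of 3 in the table) to 0 to 225. The epithelial miR-200 list (5 of 5 with counts), which the outer cell layer of a conceptus would be expected to express, summed to 403 to 9111 per 100000. Vesicles from fewer cells of a type and less miRNA per cell cannot be told apart in these libraries.

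miR-30d was the leading member and miR-30b-5p the scarcest. Ranked by pooled counts among the 1024 entries, miR-30d stood at place 16, miR-30a-5p at 30, miR-30f at 56, miR-30c at 58, miR-30e-5p at 89 and miR-30b-5p at 140. With libraries weighed equally, by mean CPM without TMM, miR-30c stood at 69 and miR-30f at 81, so the order of these 2 turned; nuclear transfer female 3 alone held 2484 of the 4952 miR-30f counts. Together the 6 entries took 1.56 ± 0.706% (SD, n = 6) of all counts in in vivo EVs, 1.16 ± 0.760% (n = 10) in IVF EVs and 1.62 ± 1.14% (n = 12) in nuclear transfer EVs. The lowest library was IVF female 5 at 0.415% (exact binomial 95% interval 0.385 to 0.447%) and the highest was nuclear transfer female 3 at 4.19% (4.14 to 4.24%). These intervals cover counting error alone. Ranges of the 3 conceptus types overlapped. Without miR-2887, miR-2904 and miR-2892 in the totals the IVF mean moved to 2.00 ± 0.559%, beside 1.94 ± 0.625% in in vivo and 2.39 ± 1.08% in nuclear transfer EVs.

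miR-30d, a member encoded next to miR-30b in mammals, had a median level of 5784 CPM over the 28 libraries. Levels are in CPM, the count relative to the library's total after TMM scaling. Mature miRNAs are of like length, so levels were set side by side without a length correction. Whether reads of each member were captured and assigned equally well was not tested, which also bears on their order and shares below. In in vivo EVs miR-30d stood at 5134, 11469 and 4902 CPM in females 1 to 3 and at 4620, 5616 and 17220 CPM in males 1 to 3. In IVF EVs it ranged from 3829 to 10199 CPM with a median of 7302 in the 7 females, and stood at 4471, 5192 and 5475 CPM in the 3 males. In nuclear transfer EVs it stood at 12162, 3967, 27768, 21047 and 11903 CPM in females 1 to 5, and ranged from 4822 to 6966 with a median of 5778 CPM in the 7 males. The highest libraries were thus nuclear transfer females 3 and 4 and in vivo male 3, while 1 nuclear transfer female lay below all males of its type.

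miR-30a-5p, a member known to repress SNAI1, averaged 2649 ± 1409 CPM (SD, n = 6) in in vivo, 2645 ± 1178 (n = 10) in IVF and 3822 ± 3132 (n = 12) in nuclear transfer EVs. It ranged from 797 CPM in nuclear transfer male 1 to 10757 in nuclear transfer female 3. miR-30c, which mammals encode in a copy beside miR-30a and a copy beside miR-30e, averaged 758 ± 514, 823 ± 303 and 1089 ± 817 CPM in the same order. miR-30e-5p, the member encoded within NFYC, averaged 419 ± 231, 612 ± 216 and 668 ± 360 CPM. For each of these 3 members the ranges of the conceptus types overlapped.

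miR-30f, an entry with no human namesake, was the member with the widest range. In in vivo EVs it stood at 227, 740 and 233 CPM in females 1 to 3 and at 168, 271 and 2360 CPM in males 1 to 3. In IVF EVs it ranged from 65.5 to 1230 CPM with a median of 141 in the 7 females, and stood at 27.8, 208 and 211 CPM in the 3 males. In nuclear transfer EVs it stood at 958, 593, 4658, 1853 and 1048 CPM in females 1 to 5, and ranged from 9.84 to 604 with a median of 247 CPM in the 7 males. The lowest library, nuclear transfer male 1, rested on 1 count of 145339, or 0.688 per 100000 (95% exact Poisson interval 0.0174 to 3.83). The 2 highest levels were those of the 2 deepest libraries, and the part of depth in this was not tested.

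miR-30b-5p, the scarcest member, averaged 94.1 ± 55.2 CPM (n = 6) in in vivo, 167 ± 134 (n = 10) in IVF and 184 ± 130 (n = 12) in nuclear transfer EVs. It held 1 to 174 counts per library and at least 10 counts in 17 of 28 libraries, so its lower values are imprecise. Its opposite arm, miR-30b-3p, was the only other product of a miR-30 precursor listed in the table. That arm held 22 counts in 10 of 28 libraries against 741 for the 5p arm, which is 2.88% of the counts of both arms (exact binomial 95% interval 1.82 to 4.33%).

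**Figure D1:**
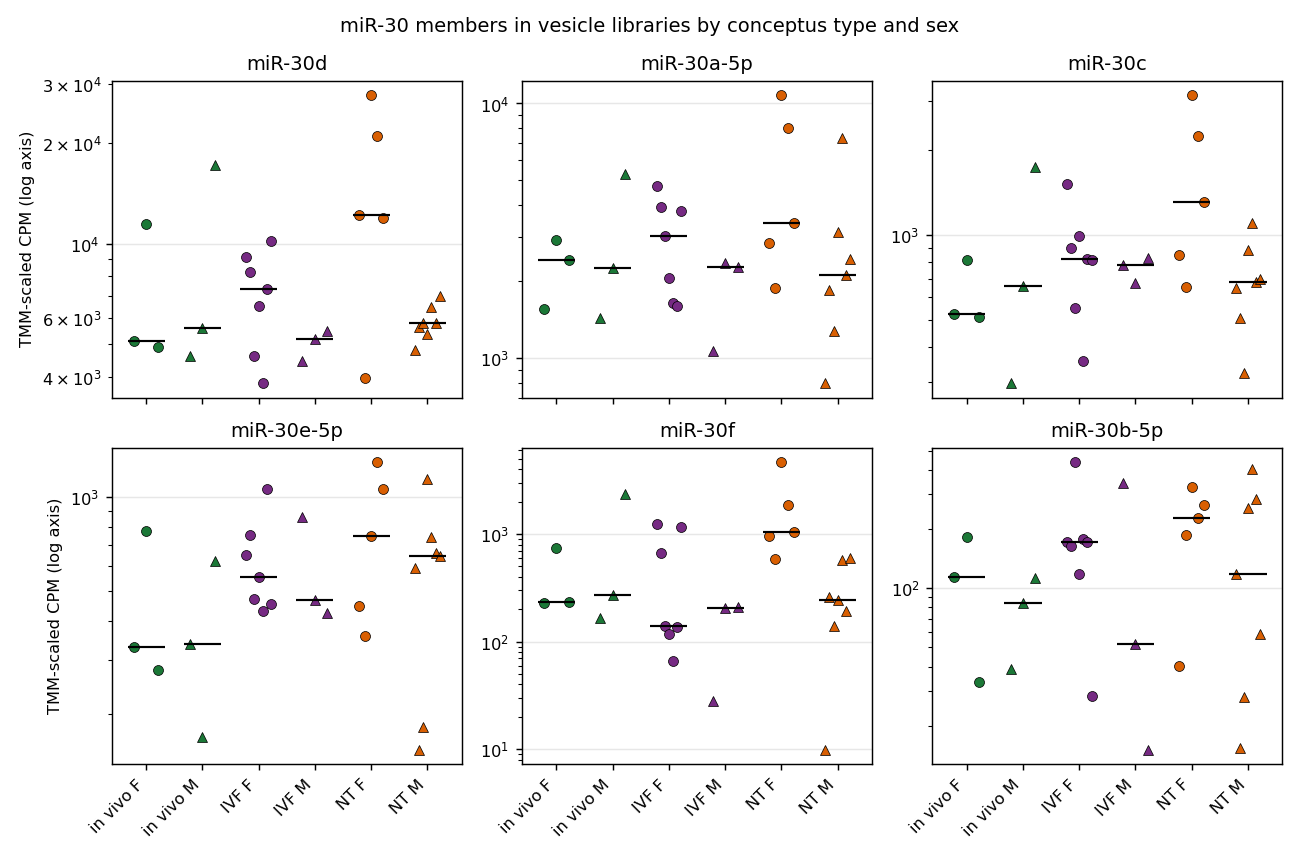
Level of each miR-30 member in the 28 vesicle libraries, as TMM-scaled CPM on a log axis, by conceptus type (in vivo, IVF, NT for nuclear transfer) and sex (F and circles for female, M and triangles for male). Each point is a library and each bar a group median; for miR-30f the nuclear transfer females lie from 593 to 4658 CPM and the males from 9.84 to 604 CPM.

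The order of the members was steady at its top and varied between libraries at its bottom. miR-30d exceeded miR-30a-5p in 27 of 28 libraries, by a geometric mean of 2.73-fold (mean log2 ratio 1.45, SD 0.56). miR-30a-5p exceeded miR-30c in 28 of 28, by 3.27-fold (1.71, SD 0.54). miR-30c exceeded miR-30e-5p in 23 of 28, by 1.52-fold (0.60, SD 0.67). This mean log2 ratio was smaller than its SD over libraries, though the direction held in those 23. miR-30e-5p exceeded miR-30f in 19 of 28 and lay below it in 9 (0.64, SD 1.83). miR-30f exceeded miR-30b-5p in 20, lay below it in 7 and equalled it in 1 (1.53, SD 2.20). For both of these pairs the spread exceeded the difference. The single exception at the top was nuclear transfer male 5, the library in which miR-30a-5p reached 7331 CPM and miR-30d 6479 CPM.

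Within a library the make-up of the family does not depend on scaling, and miR-30d was its largest member in 27 of 28 libraries. miR-30d made up 63.9 ± 3.50% of the family's counts (SD, n = 6) in in vivo, 58.5 ± 4.74% (n = 10) in IVF and 60.24 ± 10.01% (n = 12) in nuclear transfer EVs. Its share ran from 38.9% in nuclear transfer male 5 to 74.8% in nuclear transfer male 3. miR-30a-5p held 21.9 ± 4.30%, 23.4 ± 5.81% and 22.5 ± 8.11%, and miR-30c 5.92 ± 1.13%, 7.50 ± 1.84% and 6.74 ± 1.43%. For all 3 of these members the ranges of the conceptus types overlapped.

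The minor members varied more, relative to their own share, than miR-30d did. miR-30e-5p held 3.52 ± 1.24%, 5.94 ± 2.64% and 4.84 ± 2.71% of the family in in vivo, IVF and nuclear transfer EVs. miR-30b-5p held 0.803 ± 0.416%, 1.77 ± 1.68% and 1.31 ± 0.998%. miR-30f held 4.01 ± 2.36%, 2.86 ± 2.49% and 4.34 ± 2.74%, with extremes of 0.141% and 9.83% both in nuclear transfer EVs. With counts pooled over libraries, which weighs the deep ones most, the miR-30f share was 6.96% in in vivo and 7.45% in nuclear transfer EVs. The 7 libraries with fewer counts of miR-30f than of miR-30b-5p were 4 IVF and 3 nuclear transfer libraries, with totals from 136720 to 179026 counts, and the in vivo group held 0 of them.

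**Figure D2:**
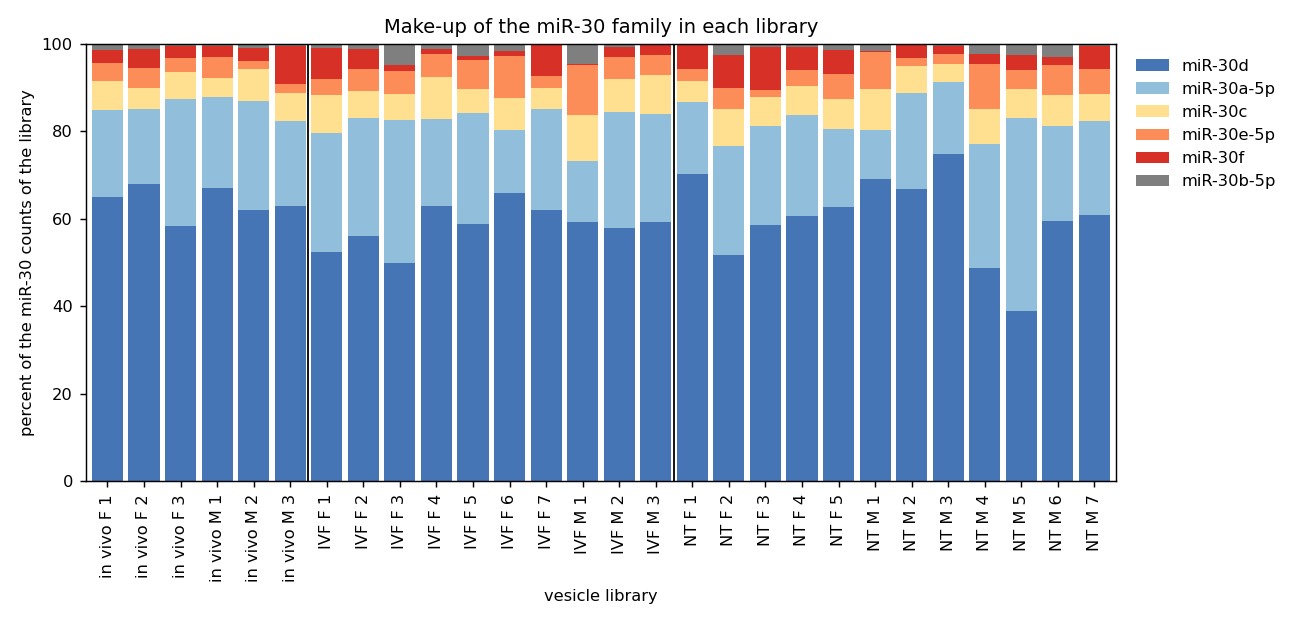
Percent of the miR-30 counts of each library taken by each member, with 1 bar per library and vertical lines between in vivo, IVF and nuclear transfer (NT) libraries; F is female and M is male. miR-30d is the largest segment in 27 of 28 bars, the exception being nuclear transfer male 5, and the miR-30f segment runs from 0.141% to 9.83%.

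The spread of the count ratio between 2 members over libraries describes how closely they moved together, whatever the scaling. The closest pairs were miR-30d with miR-30c (SD of the log2 ratio 0.44), miR-30a-5p with miR-30c (0.54) and miR-30d with miR-30a-5p (0.56). miR-30c with miR-30e-5p followed at 0.67. The widest were miR-30f with miR-30b-5p (2.20) and miR-30f with miR-30e-5p (1.83). miR-30b-5p stayed closest to miR-30e-5p (0.98) and miR-30f closest to miR-30a-5p (1.17). Restricted to the libraries with at least 10 counts of both, these last values became 0.69 (17 libraries) and 0.90 (24 libraries). There miR-30f lay closer to miR-30d (0.85) and miR-30c (0.86) than to miR-30a-5p, so its closest partner changed. The pair of miR-30f with miR-30b-5p became 1.74 (14 libraries). Counts of members this alike in sequence may share reads, and how the authors assigned such reads is not given in the sources used here. No member had the same counts as another entry. That check cannot exclude shared reads, since miR-26a and miR-26c had unlike counts yet a ratio of 2 to 2.00056 in all 28 libraries.

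**Figure D3:**
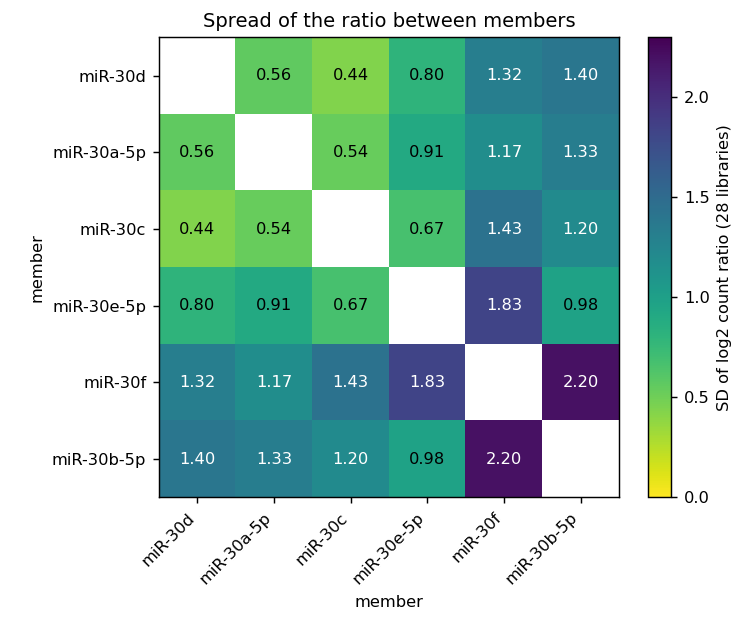
Spread of the ratio between each pair of miR-30 members, as the SD over 28 libraries of the log2 ratio of their counts (plus 0.5); a small value means that 2 members moved together. The block of miR-30d, miR-30a-5p and miR-30c lies from 0.44 to 0.56, and the miR-30f with miR-30b-5p cell is the highest at 2.20.

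Beyond the family, the entries with the steadiest ratio to the 6-member sum were miR-26c and miR-26a (SD of the log2 ratio 0.36 each), miR-191 (0.47), miR-24-3p (0.49) and the epithelial miR-200b (0.50). They were the 5 lowest of 103 entries with at least 10 counts in at least 24 libraries, and the median entry stood at 1.17. miR-26a and miR-26c are a single measurement, since the miR-26a count lay within 3 of 2 times the miR-26c count in every library. Taken member by member, an extension made after the values were seen, the steadiest partners differed. For miR-30d these were again miR-26c and miR-26a (0.41 each), for miR-30a-5p they were miR-200a (0.42) and miR-200b (0.45), and for miR-30e-5p they were miR-191 (0.56) and miR-140 (0.60). For miR-30f they were miR-10a (0.71), miR-129-5p (0.74), miR-129 (0.75), miR-200c (0.76) and let-7a-5p (0.80), against a median entry at 1.94. For miR-30b-5p the steadiest was miR-186 at 1.00, with a median entry at 1.71.

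In IVF against in vivo EVs, 0 of the 6 members passed the test, where 0% of the 240 miRNAs tested did. That background changed with the fit. Without IVF male 3, 21 of 254 miRNAs passed. With all libraries, 13 of 237 passed by DESeq2, 22 of 240 by limma voom and 6 of 655 with no filter on low counts. In each of these fits 0 members passed. Counts were compared with edgeR's quasi-likelihood test, with p adjusted over all 240 miRNAs by Benjamini-Hochberg and a threshold of 0.05, and all 6 members passed its filter on low counts. By edgeR, 0 members lay at an unadjusted p under 0.05, where 39 of the 240 miRNAs did. DESeq2 and limma voom called 0 members each. 3 members had a positive and 3 a negative difference, with a median of -0.02 on the log2 scale beside 0.01 over all miRNAs tested. The largest were miR-30f at -1.17 (SE 0.76, adjusted p = 0.454 by edgeR) and miR-30b-5p at 0.75 (SE 0.70, adjusted p = 0.616 by edgeR). miR-30d stood at -0.44 (SE 0.37), miR-30e-5p at 0.53 (SE 0.45), miR-30a-5p at -0.15 (SE 0.46) and miR-30c at 0.11 (SE 0.42). With total counts in place of TMM scaling the median over all miRNAs moved from 0.01 to -0.35 in this comparison, and miR-30c turned to -0.16; with DESeq2 size factors miR-30a-5p turned to 0.01.

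In nuclear transfer against in vivo EVs, 0 of the 6 members passed, where 0.417% of the miRNAs tested did. At an unadjusted p under 0.05 by edgeR lay 0 members, where 27 of the 240 miRNAs tested did. DESeq2 and limma voom called 0 members each. All 6 fitted differences were positive, with a median of 0.53 beside 0.15 over all miRNAs, of which 55.4% were positive. The values were 0.99 (SE 0.67) for miR-30b-5p, 0.69 (SE 0.43) for miR-30e-5p, 0.54 (SE 0.45) for miR-30a-5p, 0.52 (SE 0.40) for miR-30c, 0.25 (SE 0.71) for miR-30f and 0.22 (SE 0.35) for miR-30d. Without the 3 libraries under 50000 counts miR-30d turned to -0.03 and miR-30f to -0.08, and with total counts in place of TMM miR-30d turned to -0.11. Both members also turned when in vivo female 1, in vivo male 1 or nuclear transfer female 3 was left out, to -0.14 for miR-30d and -0.28 for miR-30f without the last.

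Against IVF EVs, nuclear transfer EVs again held 0 members past the threshold, where 1.25% of the miRNAs tested were. Differences were largest for miR-30f at 1.42 (SE 0.68, adjusted p = 0.428 by edgeR) and miR-30a-5p at 0.69 (SE 0.40, adjusted p = 0.512 by edgeR). miR-30d stood at 0.66 (SE 0.32, adjusted p = 0.428 by edgeR), miR-30c at 0.41 (SE 0.36), miR-30b-5p at 0.24 (SE 0.58) and miR-30e-5p at 0.17 (SE 0.38). miR-30d and miR-30f were the 2 members at an unadjusted p under 0.05 with higher values in nuclear transfer, where 2.92% of all miRNAs tested were. In either direction, 24 of the 240 miRNAs were. The number of members under that p was 2 by DESeq2 and limma voom, and 1 with no filter or without miR-2887, miR-2904 and miR-2892. It was 0 with DESeq2 size factors in edgeR, with total counts, with the replicate number as a block and with sex ignored. It was also 0 without the 3 libraries under 50000 counts, and ran from 0 to 2 with 1 library left out. DESeq2 and limma voom called 0 members each. The median was 0.54 beside 0.06 over all miRNAs. The 2 comparisons of nuclear transfer EVs share those libraries, as the IVF libraries are shared here with the comparison of IVF to in vivo.

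**Figure D4:**
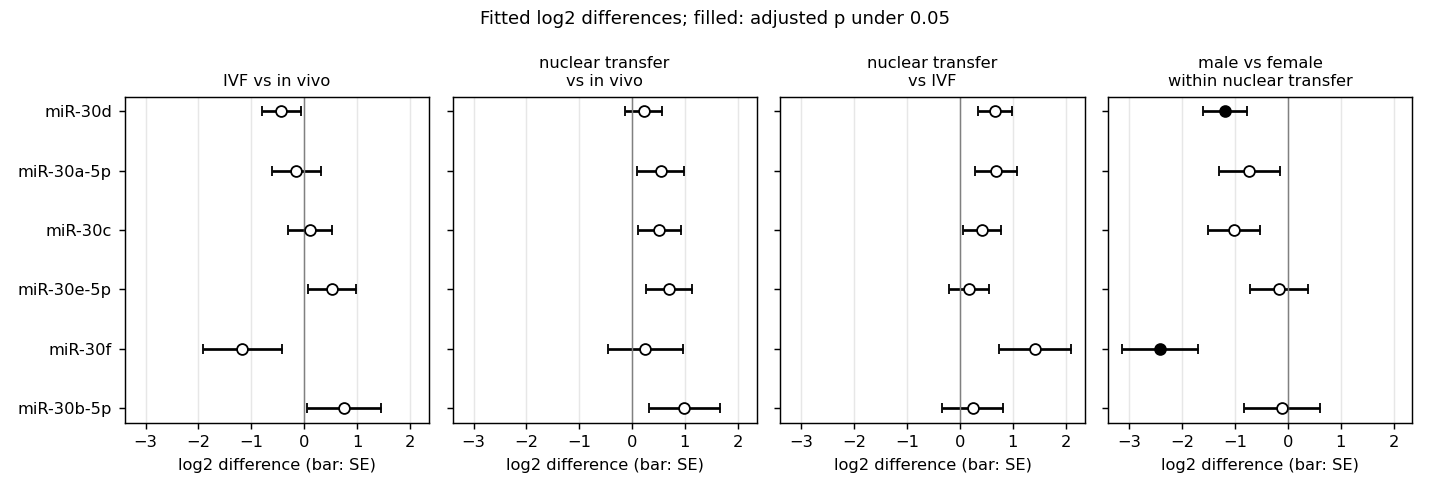
Fitted log2 differences of the 6 members in 4 comparisons, with the first named group minus the second and bars for 1 standard error (SE); filled points have an adjusted p under 0.05 by edgeR. The filled points are miR-30d at -1.19 and miR-30f at -2.42, both for males against females within nuclear transfer EVs.

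Conceptus sex, taken over the 3 types, gave 0 members past the threshold, where 0% of the miRNAs tested passed. By edgeR, 0 members lay at an unadjusted p under 0.05, where 9 of the 240 miRNAs tested did. DESeq2 and limma voom called 0 members each. All 6 differences were negative, that is lower in male EVs, from -0.26 (SE 0.34) for miR-30e-5p to -1.06 (SE 0.59, adjusted p = 0.694 by edgeR) for miR-30f. miR-30d stood at -0.51 (SE 0.28, adjusted p = 0.694 by edgeR). The median was -0.40 beside -0.04 over all miRNAs.

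Within nuclear transfer EVs, miR-30d and miR-30f were lower in males than in females. Of the 180 miRNAs tested in these 12 libraries alone, 22.2% passed the threshold, and 8.89% passed and were lower in males; 2 of the 6 members did so, and 0 members were higher. miR-30f averaged 1822 ± 1651 CPM (SD, n = 5) in females and 290 ± 221 CPM (n = 7) in males, and its fitted level fell by 2.42 on the log2 scale (adjusted p = 0.0266 by edgeR, SE 0.72). miR-30d averaged 15369 ± 9196 CPM in females and 5832 ± 706 CPM in males, and fell by 1.19 (adjusted p = 0.0436 by edgeR, SE 0.41). For both, 7 of 7 males lay below the female median. The groups overlapped: 4 of 5 females lay above all males for either member, and female 2 was the exception.

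The other 4 members did not pass in nuclear transfer EVs. miR-30c stood at -1.02 (SE 0.49, adjusted p = 0.140 by edgeR), with 1643 ± 1041 CPM in females and 693 ± 252 in males. miR-30a-5p stood at -0.73 (SE 0.58, adjusted p = 0.376 by edgeR), miR-30e-5p at -0.17 (SE 0.55) and miR-30b-5p at -0.11 (SE 0.72). The median of the 6 was -0.87 beside 0.05 over all miRNAs tested. As a share of the family, miR-30f was at 5.54, 7.75, 9.83, 5.34 and 5.52% in females 1 to 5 and from 0.141 to 5.28% with a median of 2.24% in the 7 males, so that on this measure, which needs no scaling, the groups did not overlap. They met within counting error: the lowest female, female 4, had an exact binomial 95% interval of 4.62 to 6.13%, and the highest male, male 7, one of 4.23 to 6.51%. The miR-30d share was 60.8 ± 6.70% in females and 59.8 ± 12.4% in males. The share of every member other than miR-30f overlapped between the sexes, and miR-30f itself overlapped in CPM. How many of all miRNAs separate these libraries by sex was not counted, where 22.2% of those tested passed.

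These calls depended on single libraries. Both were lost without nuclear transfer female 3, the deepest library (miR-30f at -1.70, adjusted p = 0.0986; miR-30d at -0.84, adjusted p = 0.146, both by edgeR), without male 3 (adjusted p = 0.0543 for miR-30f and 0.0923 for miR-30d) and without male 4 (0.0514 and 0.0898). The miR-30d call was also lost without female 4 (adjusted p = 0.0843 by edgeR), male 1 (0.0960) or male 5 (0.0585). It was lost too with no filter on low counts (0.0742) and with the replicate number as a block (0.186). Without female 2 the miR-30c call was gained (adjusted p = 0.0429 by edgeR) and 3 members passed. Other measures moved with conceptus sex in these libraries. miR-2887, miR-2904 and miR-2892 took 5.18 to 44.6% of counts in females and 30.3 to 59.7% in males. The epithelial list (5 of 5 entries with counts) summed to 1907 to 9111 per 100000 in females and 419 to 3419 in males, and the list of pluripotent and early embryonic cells (5 of 6 with counts, miR-367 at 0) to 12.4 to 127 in females and 45.1 to 544 in males. The muscle list reached higher in males but had the lower median there. It summed to 0.994 to 279 in females (median 79.6) and 2.75 to 1775 in males (median 22.7). For miR-122 the medians lay close, with 20.9 to 332 in females (median 204) and 85.3 to 2409 in males (median 201). Their part in the result was not tested. Conceptus sex and the donor cells of nuclear transfer cannot be told apart here.

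In the other conceptus types no sex difference of a member passed the test. In IVF EVs 0 of 6 members passed, where 0% of the 200 miRNAs tested did, and all 6 differences were negative with TMM scaling, from -0.02 (SE 0.51) for miR-30e-5p to -1.90 (SE 1.16, adjusted p = 1.00 by edgeR) for miR-30f; with DESeq2 size factors miR-30c turned to 0.05 and miR-30e-5p to 0.11. In in vivo EVs 0 of the 5 members tested passed, where 0% of the 154 miRNAs tested did, and miR-30b-5p did not reach the filter. There miR-30f stood at 0.99 (SE 0.99), miR-30c at 0.41 (SE 0.85), miR-30a-5p at 0.23 (SE 0.74) and miR-30d at 0.22 (SE 0.73), each turning negative by limma voom. Without in vivo male 3 each also turned negative, to -0.68, -0.25, -0.23 and -0.34 in that order. miR-30e-5p stood at -0.39 (SE 0.89). In both types 0 members lay at an unadjusted p under 0.05 by edgeR, where 1 of the 200 miRNAs in IVF and 0 of the 154 in in vivo EVs did. DESeq2 and limma voom called 0 members.

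Whether the sex difference depended on conceptus type was tested as an interaction over all 28 libraries. The number of members that passed was 0 of 6, where 0% of the miRNAs tested passed, and DESeq2 and limma voom called 0. miR-30f was the 1 member at an unadjusted p under 0.05 (adjusted p = 0.323 by edgeR), where 14.6% of all miRNAs tested were. miR-30d followed, also at an adjusted p = 0.323 by edgeR. A sex difference of miR-30d or miR-30f limited to nuclear transfer was therefore not shown.

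Set beside 3 other conserved families, miR-30 lay between miR-26 and miR-29 in abundance. Over the 28 libraries the let-7 entries (9) took 10.2 ± 7.53% of counts, the miR-26 entries (3) 5.77 ± 3.12%, the miR-30 members 1.44 ± 0.930% and the miR-29 entries (6) 0.136 ± 0.0943%. The miR-26 share, like the 3 miR-26 entries tested, includes both miR-26a and miR-26c, which are a single measurement. The numbers past the threshold between conceptus types were 0 in each of these families. Over all miRNAs tested, 0% passed for IVF against in vivo, 0.417% for nuclear transfer against in vivo and 1.25% for nuclear transfer against IVF. Between sexes in nuclear transfer EVs, 3 of 8 let-7 entries tested passed and were lower in males, beside the 2 of 6 miR-30 members. Of the miR-26 entries 0 of 3 did so, and of the miR-29 entries 0 of 2. Over all 180 miRNAs tested there, 8.89% passed and were lower in males. At that share, 0 of 3 and 0 of 2 do not set miR-26 or miR-29 apart. Differences between families were not tested.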

How the data were processed

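The authors deposited whole-number counts of reads per mature miRNA, not normalized, with 1 column per vesicle library. Per the labels' protocols, libraries were selected for inserts of 18 to 40 bp; the submitters' processing notes list ARS-UCD1.2, cutadapt, STAR, featureCounts, DESeq2 and Bowtie. The sources used here give neither their roles or versions nor how reads matching several miRNAs were treated. Mature sequences are not printed for want of a sequence table, and the endometrium libraries were not used here.

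Groups came from sample titles and columns from sample descriptions. Tests of the counts used edgeR 4.0.16 (R 4.3.3), with filterByExpr (minimum count 10, minimum total 15), TMM scaling, 1 fit of 6 group means for comparisons of types, sex and their interaction (2 degrees of freedom), and a fit of 2 group means within each type. A type difference is the mean of the female and male differences. Tests are two-sided, and SE was taken from the difference and its F statistic. The procedure was tested on simulated data for nuclear transfer against in vivo EVs alone, and the fits within a type were not simulated. Alternatives were DESeq2 1.42.0, limma 3.58.1 voom with quality weights, other scalings, no filter, removal of 3 entries or shallow libraries, types without sex, the replicate number as a block, and leaving out each library. Ratios used counts plus 0.5. Library totals of 39263 to 603579 counts set the precision.

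Members, lists and tests were chosen with earlier results of these data known. Named were all 6 members, other rows of their precursors and the 5 entries outside them with the steadiest ratio to their sum. A search for other entries with the same seed was planned and not run.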

Additional observations from a re-analysis of the deposited data

Results flagged for a closer look

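Of 39 sets of values in the groups of 5 or 7 libraries, 2 held a library far from the others; chance flags about 1 in 20 groups. In IVF females, replicate 3 had 436 CPM of miR-30b-5p, while the next highest of the 7 had 178 CPM. In nuclear transfer males, replicate 5 had 7331 CPM of miR-30a-5p, while the next highest of the 7 had 3129 CPM.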

How the results depend on the processing

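Of the values of single members under alternatives of the analysis, 374 kept their direction and their side of the threshold, 18 turned direction and 2 calls were lost. With 1 library left out, 950 kept both, 42 turned, 9 calls were lost and 1 was gained. The 374 and the 950 include values of the interaction, which have no direction and were judged by the threshold alone. None of the values that turned was called in the reported fit, and the cause was not tested. For IVF against in vivo EVs, miR-30a-5p came to 0.00492 with DESeq2 and 0.00583 with DESeq2 size factors in edgeR, and miR-30c to -0.16 with total counts and -0.047 without the libraries under 50000 counts. For nuclear transfer against in vivo EVs, miR-30d came to -0.11 with total counts, and without the libraries under 50000 counts miR-30d came to -0.034 and miR-30f to -0.081. For nuclear transfer against IVF EVs, miR-30b-5p came to -0.091 without the libraries under 50000 counts. For sex in in vivo EVs, limma voom gave -0.18 for miR-30a-5p, -0.24 for miR-30c, -0.20 for miR-30d and -0.31 for miR-30f. For sex in IVF EVs, DESeq2 gave 0.048 for miR-30c and 0.12 for miR-30e-5p, DESeq2 size factors gave 0.050 and 0.11, and leaving out miR-2887, miR-2904 and miR-2892 gave 0.014 for miR-30e-5p.

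With 1 library left out at a time, the log2 differences that turned ran over these ranges. For IVF against in vivo EVs they were -0.37 to 0.15 for miR-30a-5p, -0.33 to 1.02 for miR-30b-5p and -0.14 to 0.49 for miR-30c. For nuclear transfer they were -0.14 to 0.52 for miR-30d and -0.28 to 1.22 for miR-30f against in vivo EVs, and -0.069 to 1.21 for miR-30b-5p against IVF EVs. For sex in in vivo EVs they were -0.23 to 0.82 for miR-30a-5p, -0.25 to 1.096 for miR-30c, -0.34 to 0.83 for miR-30d, -0.72 to 0.26 for miR-30e-5p and -0.68 to 1.98 for miR-30f. For sex in IVF EVs they were -2.42 to 0.21 for miR-30b-5p, -0.29 to 0.12 for miR-30c and -0.55 to 0.17 for miR-30e-5p. For sex in nuclear transfer EVs they were -0.57 to 0.095 for miR-30b-5p and -0.66 to 0.081 for miR-30e-5p.

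Within nuclear transfer EVs, miR-30f passed under 8 of 8 alternatives (adjusted p 0.00151 to 0.0453) and in 9 of 12 fits without 1 library (0.0144 to 0.0986), and miR-30d in 6 of 8 (up to 0.186) and 6 of 12 (0.00870 to 0.146). The number of members that passed was 2 as reported, 1 with no filter on low counts, and 0 to 3 without 1 library. Replicate numbers do not pair libraries: over 53 pairs of libraries with the same number in different groups, the median correlation of their deviations was 0.01, from -0.63 to 0.69. With the replicate number as a block, 1 member passed there, miR-30f, while miR-30d stood at -1.01 (adjusted p = 0.186 by edgeR), and miR-30e-5p turned to -0.14 for nuclear transfer against IVF EVs. The IVF mean of the family's share of counts moved from 1.16% to 2.00% without miR-2887, miR-2904 and miR-2892.

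Counts over all miRNAs moved more. Between sexes in nuclear transfer EVs 40 passed by edgeR, 63 with no filter, 20 in the fit of all 28 libraries, and 16 without either female 3 or male 3. For IVF against in vivo EVs 0 passed by edgeR, 13 by DESeq2, 22 by limma voom, 6 with no filter and 21 without IVF male 3. For nuclear transfer against in vivo EVs 1 passed, and 6 did with no filter, with the block or with total counts, and 0 to 5 without 1 library. For nuclear transfer against IVF EVs 3 passed, 5 with no filter, 0 by DESeq2 or limma voom, and 0 to 4 without 1 library. Total counts moved the median over all miRNAs by over 0.1, to -0.18 for nuclear transfer against in vivo EVs, -0.15 for sex and -0.18 for sex in nuclear transfer EVs. DESeq2 size factors moved it to 0.13 for IVF against in vivo EVs, 0.11 for sex and 0.02 for sex in IVF EVs. Entries with few counts, above all miR-30b-5p, are limited by depth. The planned comparisons by seed and by mismatches were not run.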
